A study of Homo sapiens with 24 samples.

Results

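HepG2 is an established human liver cancer cell line, which the study's methods name as hepatocellular carcinoma. The values described here are those of its 6 arrays among the 24 arrays of 4 cancer lines. The arrays were taken by sample title, 3 of melatonin-treated cells and 3 of control cells. The study's methods give the treatment as 2.5 mmol/L melatonin over 24 h, with controls held in ethanol alongside, while the sample labels put the controls at 0 h of melatonin. With these labels, hours in culture and the solvent cannot be told apart from melatonin. Both groups were wild type HepG2 cells of 1 line grown in Dulbecco's modified Eagle's medium. Huh-7, the other liver cancer line of the study, was used for comparison, with 3 melatonin and 3 control arrays of the same dose and time. The methods call the 3 arrays of a group biological replicates, the labels do not say whether they came from separate cultures, and the p-values measure the spread between these arrays. The arrays were read as log2 intensity, and the 45278 probe sets with exactly 1 gene symbol were averaged into 18244 genes. A difference of 1 on this log2 scale is a 2-fold change.

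Hepatocytes make most proteins of blood plasma, clear drugs and hormones, build bile acids, and release glucose between meals. The fasting programme of liver is held down by insulin, whose signal keeps FoxO transcription factors out of the nucleus, and IGFBP1 and G6PC1 are textbook genes of that programme. Melatonin, the hormone of the pineal gland, acts through 2 G-protein-coupled receptors at low concentrations, and in liver it is hydroxylated by CYP1A enzymes before it is conjugated and excreted.

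Melatonin replicate 1 stood apart from the other 5 arrays. On it, the ACTB control probe sets read 11.03 at the 3′ end, 8.06 in the middle and 2.69 at the 5′ end of the transcript, and those of GAPDH read 10.69, 5.66 and 2.97. On the other 5 HepG2 arrays the ACTB 3′ and 5′ probe sets differed by 0.16 to 0.38 and those of GAPDH by -0.16 to -0.10. Replicate 1 also correlated with the other HepG2 arrays at 0.938 to 0.953 over all genes, against 0.986 to 0.998 among the other 5. KRT8, a keratin of hepatocytes, read 1.65, 9.0 and 9.12 on the melatonin arrays and 9.45, 9.57 and 9.50 on the control arrays, and P4HB, a chaperone that forms disulfide bonds, read 3.75, 9.37 and 9.36 against 9.30, 9.42 and 9.32. On both genes replicate 1 alone was far below the rest. The calls in each list are therefore counted with all 6 arrays and without melatonin replicate 1, and the fold changes are from all 6 arrays unless stated. The gene lists were written with earlier results of these data known, so their counts are a description and no independent test. The line carried its label, since 12 of 12 hepatocyte markers lay above the median level of all genes, among them ALB, the main plasma protein (11.75, 11.80 and 11.74 in melatonin-treated cells and 11.75, 11.76 and 11.75 in control cells). The count was 0 of 12 for fibroblast and stellate cell markers, 0 of 10 for endothelial markers, 2 of 13 for leukocyte markers and 7 of 9 for cholangiocyte and progenitor markers.

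**Figure D1:**
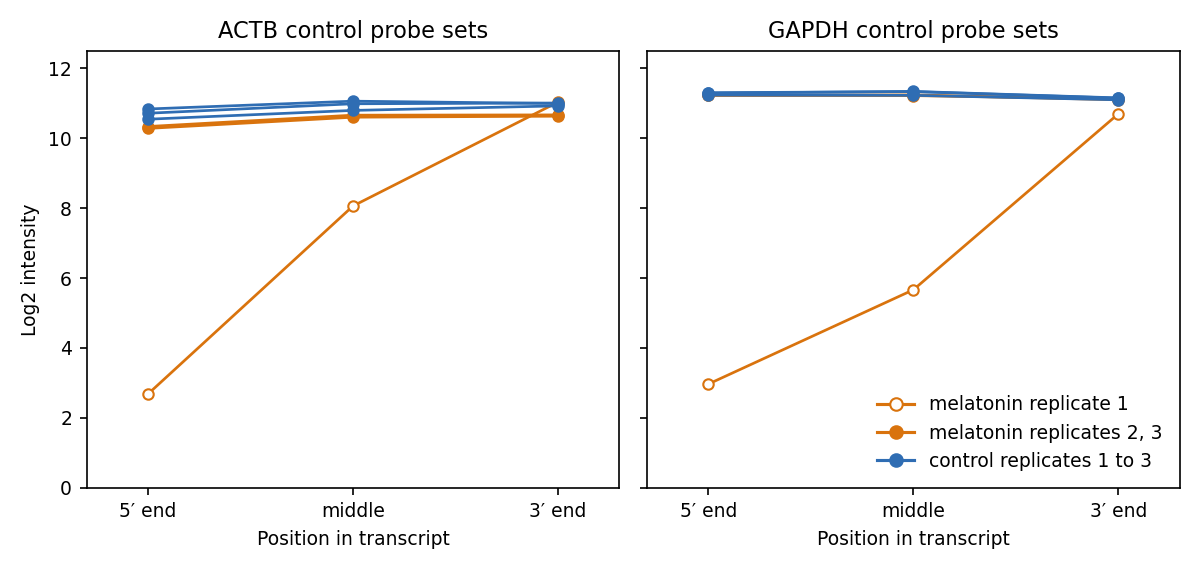
Log2 intensity of the ACTB (left) and GAPDH (right) control probe sets at the 5′ end, middle and 3′ end of the transcript, 1 line per HepG2 array, with melatonin arrays in orange and control arrays in blue. Melatonin replicate 1 falls to 2.69 and 2.97 at the 5′ end, and the other 5 arrays stay flat.

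The first question was how many genes differed between melatonin-treated and control HepG2 cells. With all 6 arrays, limma called 1377 of 18244 genes at an adjusted p under 0.05, or 7.55%, with 706 higher (3.87%) and 671 lower (3.68%) in melatonin-treated cells. Without melatonin replicate 1 it called 5721 genes, or 31.4%, with 3002 higher (16.5%) and 2719 lower (14.9%). All 1377 genes were among the 5721 and had the same direction in both fits. Of them, 981 had a fold change of 1.5 or more and 347 of 2 or more. With melatonin replicate 1 in the fit, the number moved with single arrays of both groups. It was 314 without melatonin replicate 2, and 21, 31 and 22 without control replicates 1, 2 and 3. With melatonin replicate 1 left out, it was 4996, 4797 and 4817 without control replicates 1, 2 and 3. For 6485 genes (35.5%), the 3 melatonin arrays lay all above or all below the 3 control arrays. The labels state that spike-in RNA was added by cell number. With the arrays centred on the 1 ERCC spike-in probe set above the median on all 6 arrays, the median log2 fold change of all genes was -0.20 in place of 0.04, and 186 genes were higher and 1217 lower. That probe set read 4.45 to 4.97 on the control arrays and 4.75 to 5.02 on the melatonin arrays, so the groups overlapped. Its spread among the control arrays was wider than the shift that the centring gave to the median. No HepG2 array had more than 2 ERCC probe sets above the median. The counts with this centring therefore cannot show whether RNA per cell changed. Directions below rest on the deposited normalization, and what the spike-in says of RNA per cell rests on that 1 probe set.

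Among genes above the median level, the highest log2 fold change was that of KLHL24, a kelch-like adaptor protein of a ubiquitin ligase. It read 5.42, 5.07 and 4.66 in melatonin-treated cells and 2.69, 2.60 and 2.69 in control cells, which gave a log2 fold change of 2.39 and a standard error of 0.19 (adjusted p = 0.00495). The fold change was 2.20 without replicate 1. NUPR1, a small nuclear protein made under cell stress, read 7.91, 7.68 and 7.43 against 5.28, 5.19 and 5.48, and all 3 melatonin arrays lay more than 2 log2 units above their controls' mean. IGFBP1, which liver secretes in fasting and which binds insulin-like growth factors in plasma, read 10.94, 10.70 and 10.32 in melatonin-treated cells and 8.57, 8.45 and 8.30 in control cells. Its log2 fold change was 2.21 (standard error 0.17, adjusted p = 0.00454), and 2.07 without replicate 1. The homeobox gene HOXD1 read 9.86, 9.74 and 9.53 against 7.87, 7.88 and 7.84 with the smallest standard error of the 15 highest genes, at a log2 fold change of 1.85 and a standard error of 0.10. YPEL2, of the yippee-like family, rose by 1.96 and the choline transporter-like gene SLC44A2 by 1.90. The deubiquitinase gene OTUD1 rose by 1.95 and CREBRF, a regulator of the CREB3 transcription factor, by 2.19. Without replicate 1 the rise was 1.64 for OTUD1 and 1.82 for CREBRF. CREBRF read 4.88, 4.04 and 3.50 on the melatonin arrays, and its level was highest on replicate 1. The noncoding RNA MALAT1 had the same order, with 8.11, 7.16 and 6.51 in melatonin-treated cells and 5.57, 5.22 and 5.48 in control cells, and its log2 fold change was 1.84 with all arrays and 1.42 without replicate 1.

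Several of the deepest falls were in genes of hepatocyte function. ADH4, an alcohol dehydrogenase of liver that oxidises ethanol and retinol, read 3.62, 2.88 and 3.09 in melatonin-treated cells and 6.46, 6.46 and 6.33 in control cells. It fell by 3.22 on the log2 scale (standard error 0.19, adjusted p = 0.00306), and by 3.43 without replicate 1. CPB2, a plasma carboxypeptidase that slows the breakdown of clots, read 5.34, 4.73 and 5.17 against 8.16, 8.0 and 8.07 and fell by 2.99 (standard error 0.17, adjusted p = 0.00254). UGT2B10, a glucuronosyltransferase of liver, read 5.05, 3.92 and 4.34 against 7.0, 7.03 and 7.0 and fell by 2.57. AKR1D1, the 5-beta-reductase of bile acid synthesis, fell by 2.23, ADH6 by 2.24 and GSTA2, a glutathione transferase, by 2.08. HPR, which encodes haptoglobin-related protein, fell by 2.5, and its replicate 1 value of 1.73 lay below the 3.16 and 2.90 of the other melatonin arrays. Outside liver functions, AP1M2, an adaptor subunit of epithelial vesicle sorting, read 3.53, 3.49 and 4.07 against 6.27, 6.48 and 6.40 and fell by 2.69, and the calcium-binding protein gene SCGN read 3.51, 3.67 and 3.85 against 6.25, 6.17 and 6.06 and fell by 2.48. HPR, GSTA2, UGT2B10 and the alcohol dehydrogenases have close paralogs, and whether their probes also bind those was not tested.

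**Figure D2:**
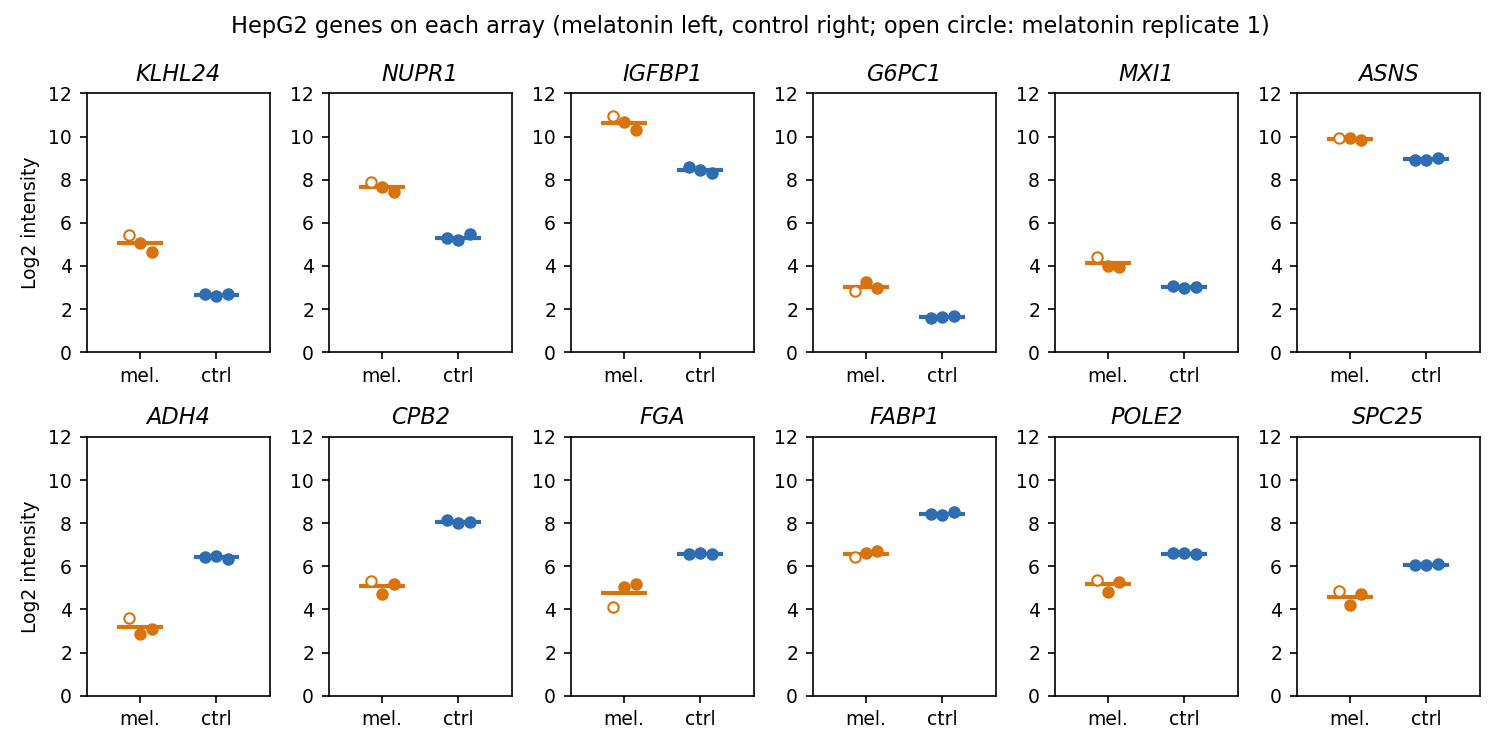
Log2 intensity of 12 genes on each HepG2 array, with melatonin arrays in orange on the left and control arrays in blue on the right of each panel, melatonin replicate 1 as an open circle and the mean of each group as a bar. The panels were drawn from genes called with all 6 arrays, and the open circle of replicate 1 lies at 5.42 for KLHL24 and at 3.62 for ADH4.

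Secreted proteins of liver were called lower more often than higher, while ALB, SERPINA1 and AFP did not pass the test. Of 38 measured plasma protein genes, 0 were higher and 7 lower with all 6 arrays, and 0 and 16 without replicate 1, beside 3.87% higher and 3.68% lower of all genes in the first fit and 16.5% and 14.9% in the other. The median log2 fold change of the list was -0.44 and -0.16, beside 0.04 and 0.01 for all genes. On replicate 1 the genes of the list lay a median of 0.28 below replicates 2 and 3, and the part of that array in the list's fold change was not tested. SERPINA7, the thyroxine-binding globulin of plasma, read 6.93, 6.38 and 6.73 in melatonin-treated cells and 8.68, 8.61 and 8.56 in control cells and fell by 1.94 (standard error 0.15, adjusted p = 0.00446). HP, haptoglobin, which captures free hemoglobin, read 4.73, 5.17 and 5.27 against 6.87, 6.78 and 6.82 and fell by 1.77. By contrast, SERPINA1, alpha-1-antitrypsin, read 10.54, 10.37 and 10.41 against 10.27, 10.32 and 10.35, a log2 fold change of 0.12 that did not pass the test (adjusted p = 0.44). AFP, the fetal counterpart of ALB, read 10.62, 10.74 and 10.70 against 10.78, 10.76 and 10.73 and did not pass it either.

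Coagulation, complement and lipoprotein genes were also called lower more often than higher. Among 19 coagulation and fibrinogen genes, 1 was higher and 6 lower, and 1 and 9 without replicate 1, where all genes had 3.87% and 3.68%, and 16.5% and 14.9%. FGA, the alpha chain of fibrinogen, read 4.11, 5.02 and 5.18 in melatonin-treated cells and 6.56, 6.62 and 6.59 in control cells and fell by 1.82 (standard error 0.28, adjusted p = 0.018), or by 1.49 without replicate 1. The beta chain gene FGB fell by 0.67 and the gamma chain gene FGG by 0.69, so all 3 fibrinogen genes passed the test. The probe sets of FGB ranged from -1.03 to 0.07 in log2 fold change without replicate 1. F10, the clotting factor that joins both arms of the cascade, was the 1 gene of the list that rose, by 0.47. Among 20 complement genes, 0 were higher and 8 lower (2 and 12 without replicate 1). The falls were 1.05 for C5, the precursor of the terminal complex, 1.46 for the protease CFI and 0.90 for its cofactor C4BPA. Without replicate 1 the log2 fold changes of C5, CFI and C4BPA were -1.20, -1.16 and -1.01. Of 22 apolipoprotein and lipoprotein assembly genes, 0 were higher and 8 lower (1 and 11 without replicate 1). APOC3, an inhibitor of lipoprotein lipase, read 6.07, 6.67 and 6.84 in melatonin-treated cells and 8.15, 8.13 and 8.13 in control cells and fell by 1.61. APOA5, which aids that lipase, fell by 1.24, and MTTP, which loads lipid onto apolipoprotein B, fell by 0.91. APOA1 read 7.32, 10.67 and 10.65 against 10.80, 10.80 and 10.84, a log2 fold change of -1.27 set by replicate 1 and of -0.15 without it, and it passed the test in neither fit.

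The promoter of FGA is shown because the letters of the HNF1 motif lie close to the start. HNF1 is a transcription factor of hepatocytes. The motif searched was GTTAATNAT on both strands, in RefSeq promoters of build GRCh38.p14 that run from 250 bases before to 50 bases after the start. It was found in 4 of the 18 coagulation genes with a listed promoter (22.2%), in 3 of 26 plasma protein genes (11.5%) and in 0 of 42 phase I genes, against 0.963% of the 27305 genes of the table. The letters CAAAGTCCA of HNF4, another such factor, were in 0 of 15 lipoprotein genes, in 1 of 26 plasma protein genes (3.85%) and in 0.472% of all genes. The 3 plasma protein genes with the HNF1 letters were ALB, AFP and SERPINA4, of which ALB and AFP did not pass the test. Whether the HNF1 letters go with the falls was not tested. Capitals mark the match, which is on the reverse strand from base -55. The FGA promoter lies on the minus strand at chr4:154590693-154590992.
FGA: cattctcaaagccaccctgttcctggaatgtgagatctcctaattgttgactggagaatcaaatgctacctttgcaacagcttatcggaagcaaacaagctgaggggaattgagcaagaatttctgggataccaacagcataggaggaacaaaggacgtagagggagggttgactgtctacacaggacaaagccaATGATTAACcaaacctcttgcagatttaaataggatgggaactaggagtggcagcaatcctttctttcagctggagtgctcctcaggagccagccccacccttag

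Phase I drug metabolism genes were called in both directions with the deposited normalization, and phase II and bile acid genes mostly lower. Of 50 phase I genes, 4 were higher and 7 lower with all arrays, and 10 and 11 without replicate 1, beside 3.87% and 3.68% of all genes, and 16.5% and 14.9%. With the ERCC centring 0 were higher and 9 lower, beside 186 and 1217 of the 18244 genes. Beside ADH4 and ADH6, the falls were 1.02 for ADH5, 1.09 for ALDH1A1, which makes retinoic acid, and 0.91 for FMO5, a flavin monooxygenase. Of the 4 rises, 3 were in cytochrome P450 genes that act on fatty acids, with 0.85 for CYP2J2, 0.83 for CYP4F11 and 0.79 for CYP2U1. CYP2U1 lay below the median gene level in both groups, and its probe sets ranged from 0.01 to 1.22 without replicate 1. CYP3A4, the main drug oxidase of adult liver, read 1.85, 1.53 and 1.47 in melatonin-treated cells and 1.59, 1.5 and 1.56 in control cells, below the median gene level of 2.87 on each array. Of 36 phase II genes, which conjugate drugs and hormones, 0 were higher and 7 lower (5 and 10 without replicate 1). SULT2A1, the sulfotransferase of bile acids and steroids, read 5.50, 5.47 and 5.49 against 7.22, 7.18 and 7.20 and fell by 1.71 (standard error 0.07, adjusted p = 0.00254), with replicate 1 level with the other melatonin arrays. UGT2A3 fell by 1.14. Of 30 genes of bile acid synthesis and transport, 1 was higher and 5 lower (1 and 11 without replicate 1). The gene that rose was NR0B2, the small heterodimer partner that represses bile acid synthesis, which read 9.48, 9.92 and 9.70 in melatonin-treated cells and 8.09, 7.98 and 8.02 in control cells, which gave a log2 fold change of 1.67 and a standard error of 0.13 (adjusted p = 0.00446). AKR1D1 and SLC27A5, which joins bile acids to coenzyme A, fell by 2.23 and 1.21. CYP7A1, the rate-limiting enzyme of the classic pathway, read 1.06, 0.88 and 0.87 against 1.14, 0.97 and 0.94, near the bottom of the scale in both groups.

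G6PC1, PPARGC1A, KLF15 and CEBPB rose, and SLC2A2 fell. G6PC1, the catalytic subunit that releases free glucose, read 2.83, 3.28 and 2.98 in melatonin-treated cells and 1.61, 1.62 and 1.67 in control cells, which gave a log2 fold change of 1.40 and a standard error of 0.13 (adjusted p = 0.00613). Its control values lay below the median gene level. PPARGC1A, a coactivator induced in fasting, read 4.06, 4.01 and 4.02 against 3.13, 3.07 and 3.05 and rose by 0.95 (standard error 0.07). KLF15, a transcription factor of amino acid use in fasting, rose by 1.57, or by 1.2 without replicate 1. CEBPB, which drives acute phase and gluconeogenic genes, rose by 0.84. PCK1, the gluconeogenic carboxykinase, read 2.38, 1.80 and 1.58 against 1.25, 1.28 and 1.19 and passed the test only without replicate 1 (log2 fold change 0.45, adjusted p = 0.00358). SLC2A2, the glucose transporter of hepatocytes, moved the other way, with 1.96, 1.63 and 1.76 against 3.69, 3.52 and 3.55, and fell by 1.80 (standard error 0.11, adjusted p = 0.00306). Gluconeogenesis and glycogen genes as a list had 1 of 19 higher and 2 lower, beside 3.87% and 3.68% of all genes, and 3 and 7 without replicate 1, beside 16.5% and 14.9%. CPT1A, the entry step of fatty acids into mitochondria, rose by 0.76, while FABP1, the fatty acid binding protein of liver, read 6.45, 6.60 and 6.72 in melatonin-treated cells and 8.42, 8.37 and 8.50 in control cells and fell by 1.84 (standard error 0.10, adjusted p = 0.00254).

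Of 33 targets of insulin and FoxO signalling in liver, 11 were higher and 2 lower with all 6 arrays, and 22 and 2 without replicate 1, beside 3.87% and 3.68% of all genes in the first fit and 16.5% and 14.9% in the other. Their median log2 fold change was 0.40 with all arrays and 0.41 without replicate 1. With the ERCC centring it was 0.16, and 7 were higher and 1 lower, beside 186 and 1217 of the 18244 genes. KLHL24, IGFBP1 and G6PC1 are on this list, as is PINK1, the kinase that marks damaged mitochondria, which read 5.57, 6.16 and 5.92 against 4.71, 4.69 and 4.60 and rose by 1.22. MXI1, an antagonist of MYC, read 4.41, 4.02 and 3.95 in melatonin-treated cells and 3.06, 3.0 and 3.0 in control cells. It rose by 1.10 (standard error 0.13, adjusted p = 0.0105), and its probe sets ranged from 0.39 to 1.33 without replicate 1. DEPP1, a gene induced in fasting, passed the test only without replicate 1. It read 7.62 and 7.09 on melatonin replicates 2 and 3 and 5.18, 5.16 and 5.25 in control cells, with 4.30 on replicate 1. The 2 members that fell were SESN1, by 0.63, and CDKN1A, the inhibitor of cyclin-dependent kinases also called p21, which read 6.44, 6.83 and 6.80 against 7.33, 7.44 and 7.41 and fell by 0.70.

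A listed MXI1 promoter is shown for its copy of the FoxO core TGTTTAC, from base -151 on the forward strand, in capitals. Of the 27 genes of the insulin and FoxO list with a listed promoter, 5 held this motif on either strand (18.5%), against 4.19% of all genes of the table. The promoter lies on the plus strand at chr10:110209981-110210280.
MXI1: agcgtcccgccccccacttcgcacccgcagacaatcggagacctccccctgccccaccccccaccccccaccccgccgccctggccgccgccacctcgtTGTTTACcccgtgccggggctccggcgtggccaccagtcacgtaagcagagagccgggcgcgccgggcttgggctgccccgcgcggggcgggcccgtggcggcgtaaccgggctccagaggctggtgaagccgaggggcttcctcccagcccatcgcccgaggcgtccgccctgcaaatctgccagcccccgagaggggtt

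The genes of the ATF4 stress response that were called with all 6 arrays were higher in melatonin-treated cells, while with the arrays centred on the ERCC probe set 3 were higher and 6 lower. ATF4 is a transcription factor made when amino acids are short or protein folding fails, and it switches on amino acid transporters and enzymes. Of 43 genes of this response, 10 were higher and 0 lower with all arrays, and 28 and 2 without replicate 1, with a median log2 fold change of 0.23 and 0.49. Of all genes, 3.87% were higher and 3.68% lower, and 16.5% and 14.9% without replicate 1. On replicate 1 the genes of the list lay a median of 0.28 below replicates 2 and 3. With the ERCC centring the median was -0.01, beside -0.20 for all genes, of which 186 of 18244 were higher and 1217 lower. NUPR1 led the list, and VLDLR, the receptor of very low density lipoprotein, rose by 1.67, CTH, the last enzyme of cysteine synthesis, by 1.27 and SESN2, a brake on mTORC1, by 0.95. ASNS, asparagine synthetase, was added for its promoter after the values had been seen. It read 9.94, 9.95 and 9.84 in melatonin-treated cells and 8.93, 8.90 and 9.0 in control cells and rose by 0.97 (standard error 0.08, adjusted p = 0.00494). DDIT4, another mTORC1 brake, read 8.91 and 8.73 on melatonin replicates 2 and 3, 6.32 on replicate 1 and 7.08, 7.23 and 7.28 in control cells. It was called only without replicate 1, with a log2 fold change of 1.62 (adjusted p = 3.32e-05). INHBE, an activin subunit made by liver, had 5.71, 5.27 and 5.28 against 5.86, 5.86 and 5.85 and fell by 0.58 without replicate 1 only.

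The ASNS promoter is shown for its C/EBP-ATF response element, searched as TGATGNAA on both strands and given in capitals from base -68. Of 34 ATF4 response genes with a listed promoter, 12 held the motif (35.3%), against 4.46% of all genes of the table. The promoter lies on the minus strand at chr7:97872359-97872658.
ASNS: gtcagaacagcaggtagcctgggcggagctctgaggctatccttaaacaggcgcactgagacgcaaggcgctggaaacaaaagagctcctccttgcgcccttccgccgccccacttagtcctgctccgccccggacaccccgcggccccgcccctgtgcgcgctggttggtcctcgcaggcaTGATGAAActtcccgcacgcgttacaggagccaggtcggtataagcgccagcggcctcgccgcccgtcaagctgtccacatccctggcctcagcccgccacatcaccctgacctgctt

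Among 33 chaperone and degradation genes of the endoplasmic reticulum, 3 were higher and 3 lower, and 5 and 9 without replicate 1, beside 3.87% and 3.68% of all genes, and 16.5% and 14.9%. With the ERCC centring 0 were higher and 5 lower, beside 186 and 1217 of the 18244 genes. SDF2L1 read 6.49, 7.02 and 7.09 in melatonin-treated cells and 8.25, 8.14 and 8.33 in control cells and fell by 1.37, and MANF, secreted when folding fails, fell by 0.36. HSPA5, the main chaperone of that compartment, read 5.80, 8.58 and 8.48 in melatonin-treated cells and 8.90, 8.88 and 8.96 in control cells, and it was called only without replicate 1, where it fell by 0.38. Of 23 cytosolic heat shock genes, 0 were higher and 3 lower (1 and 12 without replicate 1), led by the small heat shock protein gene HSPB1, which fell by 1.44. On replicate 1 the genes of that list lay a median of 0.35 below the other melatonin arrays. Of 23 genes of the antioxidant factor NRF2, 2 were higher and 3 lower (8 and 5 without replicate 1, and 0 and 4 with the ERCC centring), with SRXN1 up by 0.74 and GCLC, the first enzyme of glutathione synthesis, up by 0.82, while NQO1 fell by 0.82. HMOX1, heme oxygenase, read 3.09, 4.69 and 4.49 against 5.88, 5.85 and 5.91. It missed the threshold with all arrays (adjusted p = 0.0552) and fell by 1.29 without replicate 1.

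The cell cycle genes called with all 6 arrays were lower in melatonin-treated cells. In bulk RNA, fewer cycling cells and less RNA in each cycling cell cannot be told apart. Of 54 DNA replication genes, 0 were higher and 19 lower with all 6 arrays, and 1 and 45 without replicate 1, with a median log2 fold change of -0.76 and -0.68. The shares of all genes were 3.87% and 3.68%, and 16.5% and 14.9%. POLE2, a subunit of DNA polymerase epsilon, read 5.37, 4.83 and 5.29 in melatonin-treated cells and 6.60, 6.60 and 6.57 in control cells and fell by 1.43 (standard error 0.15, adjusted p = 0.00806). GINS1 and GINS2, subunits of the helicase that opens the fork, fell by 1.62 and 1.74 (log2 fold changes of -1.42 and -1.41 without replicate 1). MCM2 and MCM4, subunits of its ring, read 3.46, 4.92 and 5.36 against 6.68, 6.75 and 6.65 and 3.63, 5.49 and 5.94 against 7.11, 7.20 and 7.09. Their replicate 1 values were the lowest, both missed the threshold with all arrays (adjusted p = 0.0507 and 0.0868), and without replicate 1 they fell by 1.55 and 1.42. Of 63 mitosis genes, 0 were higher and 24 lower, and 0 and 57 without replicate 1, with a median of -0.62 and -0.66. SPC25, part of the kinetochore, read 4.85, 4.18 and 4.70 against 6.05, 6.05 and 6.11 and fell by 1.49 (standard error 0.18, adjusted p = 0.00998). CDC25A, the phosphatase that frees cyclin-dependent kinases, fell by 1.39, CCNA2, cyclin A2, by 1.14 and UBE2C, which tags cyclins for breakdown, by 1.23. The transcription factor gene E2F8 fell by 1.59. Replicate 1 lay above replicates 2 and 3 on the mitosis list, by a median of 0.27, and below them on the replication list, by 0.23.

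The promoters of GINS2 and SPC25 are shown because both genes fell and each holds the letters of cell cycle motifs near its start. The E2F site was searched as TTCCCGC, the cell cycle homology region as TTTGAA and the NF-Y box as CCAAT, on both strands, and none of these motifs lies within another. The E2F letters were in 21 of 47 replication genes with a listed promoter (44.7%), in 4 of 54 mitosis genes (7.41%) and in 7.82% of all genes. TTTGAA was in 36 of 54 mitosis genes (66.7%), in 3 of 47 replication genes (6.38%) and in 18.2% of all genes, and CCAAT in 79.6%, 57.4% and 39.7%. Capitals mark the CCAAT letters (forward strand from base -158) and the E2F site (reverse strand from base -31) in GINS2, which holds no TTTGAA. In SPC25 they mark 2 TTTGAA (from bases -247 and -3), 2 CCAAT (from -88 and -56) and the E2F site (reverse strand from -20). GINS2 lies on the minus strand at chr16:85688905-85689204 and SPC25 on the minus strand at chr2:168890381-168890680.
GINS2: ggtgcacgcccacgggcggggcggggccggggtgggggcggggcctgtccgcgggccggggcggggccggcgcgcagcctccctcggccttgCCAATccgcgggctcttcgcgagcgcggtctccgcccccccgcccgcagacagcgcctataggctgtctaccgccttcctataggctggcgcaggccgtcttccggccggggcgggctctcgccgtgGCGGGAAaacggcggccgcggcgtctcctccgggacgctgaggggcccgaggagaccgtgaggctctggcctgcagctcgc
SPC25: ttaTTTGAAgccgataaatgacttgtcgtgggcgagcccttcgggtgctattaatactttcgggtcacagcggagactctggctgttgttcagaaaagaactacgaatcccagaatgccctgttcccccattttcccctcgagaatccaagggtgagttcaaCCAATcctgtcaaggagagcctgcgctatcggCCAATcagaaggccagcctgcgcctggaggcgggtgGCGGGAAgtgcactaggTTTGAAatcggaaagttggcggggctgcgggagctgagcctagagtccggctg

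Genes of growth arrest were called higher more often than lower, and p53 targets in both directions. Of 23 genes of growth arrest, 7 were higher and 1 lower (14 and 4 without replicate 1), beside 3.87% and 3.68% of all genes (16.5% and 14.9%). BTG1, an antiproliferative gene, read 5.77, 5.58 and 5.38 in melatonin-treated cells and 4.10, 4.04 and 4.11 in control cells and rose by 1.49, and YPEL5 rose by 1.38. The probe sets of BTG1 ranged from 0.16 to 2.05 in log2 fold change without replicate 1. Of 25 targets of p53, 4 were higher and 6 lower (9 and 12 without replicate 1). TP53I3 read 7.73, 7.89 and 7.69 against 6.40, 6.52 and 6.41 and rose by 1.33 (standard error 0.09, adjusted p = 0.00346), and TP53INP1, which acts in autophagy and death, rose by 1.01. DDB2, which finds ultraviolet damage in DNA, read 4.48, 4.77 and 4.93 against 5.82, 5.80 and 5.92 and fell by 1.12 (standard error 0.13, adjusted p = 0.00939), and FAS, a death receptor, fell by 1.01. CDKN1A, the best known p53 target, fell as given above.

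Genes of ribosome production and of messenger RNA splicing were called lower and not higher with all 6 arrays. Of 54 ribosome biogenesis genes, 0 were higher and 15 lower (1 and 39 without replicate 1), with a median of -0.52 and -0.37, beside 3.87% and 3.68% of all genes (16.5% and 14.9%). NOLC1, a nucleolar chaperone, read 6.45, 6.32 and 6.48 in melatonin-treated cells and 7.22, 7.22 and 7.22 in control cells and fell by 0.80. The exception without replicate 1 was MYC, which had 9.75, 9.21 and 9.02 against 8.85, 8.84 and 8.87 and a log2 fold change of 0.26 (adjusted p = 0.0269), and which did not pass the test with all arrays. Of 61 spliceosome and RNA processing genes, 0 were higher and 16 lower (3 and 36 without replicate 1). SRSF1, a splicing factor of the SR family, read 5.49, 5.28 and 5.34 against 6.70, 6.79 and 6.76 and fell by 1.38 (standard error 0.09, adjusted p = 0.0031), and its relatives SRSF7 and SRSF2 fell by 1.31 and 1.05.

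Lipid and lysosome genes differed in direction. Of 24 genes of cholesterol synthesis and uptake, 1 was higher and 7 lower (5 and 11 without replicate 1), beside 3.87% and 3.68% of all genes (16.5% and 14.9%), and replicate 1 lay a median of 0.58 below the other melatonin arrays over the list. HMGCS1, which makes hydroxymethylglutaryl-CoA, read 6.46, 6.47 and 6.54 in melatonin-treated cells and 7.62, 7.51 and 7.65 in control cells and fell by 1.10 (standard error 0.08, adjusted p = 0.00384), with replicate 1 beside the others. INSIG2, a brake on the same pathway, rose by 0.55. FADS2, a fatty acid desaturase, fell by 1.29 and GPAM, the first enzyme of triglyceride synthesis, by 1.20, while LPIN1, a phosphatase of the same route that fasting induces, rose by 0.66. Of 54 lysosome and autophagy genes, 8 were higher and 1 lower (33 and 3 without replicate 1). MAP1LC3B, a protein of the autophagosome membrane, read 8.56, 8.82 and 8.62 against 7.88, 7.91 and 7.88 and rose by 0.78, and CCPG1, through which endoplasmic reticulum is taken up by autophagy, by 1.23. The one that fell was the protease gene CTSC, by 0.69. The median of that list was 0.18, and -0.06 with the ERCC centring, where 2 were higher and 3 lower. Of all 18244 genes, that centring called 186 higher and 1217 lower.

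Of 34 genes of actin and of the factors SRF and YAP, 0 were higher and 8 lower (1 and 20 without replicate 1), beside 3.87% and 3.68% of all genes (16.5% and 14.9%). TAGLN, an actin-binding protein of contractile cells, read 3.79, 5.32 and 5.64 in melatonin-treated cells and 7.06, 7.5 and 7.40 in control cells, a log2 fold change of -2.40 and of -1.84 without replicate 1, and MYLK, a myosin kinase, fell by 1.89. The gene of the Wnt inhibitor DKK1 fell by 1.63 and LEAP2, a peptide hormone of liver, read 3.90, 3.27 and 3.31 against 5.60, 5.43 and 5.63 and fell by 2.07. FST, follistatin, which liver secretes and which binds activins, read 9.49, 9.11 and 8.92 against 7.70, 7.62 and 7.69 and rose by 1.5 (standard error 0.15, adjusted p = 0.00721), and HAMP, the iron hormone hepcidin, rose by 0.74. Of 31 immediate early genes, 5 were higher and 0 lower (17 and 2 without replicate 1), against the same shares of all genes. With the ERCC centring 4 were higher and 0 lower, beside 186 and 1217 of the 18244 genes. EGR1 read 4.19, 4.79 and 4.41 against 3.16, 3.27 and 3.19 and rose by 1.26, and DUSP6, a phosphatase that feeds back on ERK, rose by 1.12. For EGR1, the single probe sets ranged from 0.26 to 2.39 without replicate 1.

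The receptors of melatonin were at the floor of the arrays. MTNR1A read 1.77, 1.65 and 1.98 in melatonin-treated cells and 1.80, 1.52 and 1.71 in control cells, and MTNR1B read 1.43, 1.35 and 1.63 against 1.21, 1.06 and 1.42, both below the median gene level of 2.87 on each array and with no call in either fit. CYP1A1, which hydroxylates melatonin and is a target of the aryl hydrocarbon receptor, read 3.02, 3.57 and 3.58 against 4.39, 4.41 and 4.36 and fell by 1.0 (standard error 0.16, adjusted p = 0.0226). CYP1A2, the main hydroxylase of melatonin in adult liver, read 3.40, 3.27 and 3.03 against 3.16, 3.35 and 3.20, a log2 fold change of 0.00 (adjusted p = 0.991). AHR itself rose by 0.81. DDC, the decarboxylase that makes serotonin, read 3.17, 3.23 and 3.64 against 5.35, 5.53 and 5.39 and fell by 2.08 (standard error 0.14, adjusted p = 0.00381). NQO2, a quinone reductase that binds melatonin, missed the threshold with all arrays (adjusted p = 0.0671) and fell by 0.39 without replicate 1. Among 22 clock genes, 3 were higher and 0 lower, namely BMAL1 (log2 fold change 1.15), NFIL3 (0.97) and NR1D2 (1.45), and 7 and 3 without replicate 1, beside 3.87% and 3.68% of all genes (16.5% and 14.9%). The median of the clock list was 0.06, and -0.18 with the ERCC centring, where 3 were higher and 0 lower. Of all 18244 genes, that centring called 186 higher and 1217 lower.

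Of 43 genes of the urea cycle and amino acid breakdown, 3 were higher and 5 lower (8 and 19 without replicate 1). The shares of all genes were 3.87% and 3.68% (16.5% and 14.9%). With the ERCC centring 1 was higher and 11 lower, beside 186 and 1217 of the 18244 genes. BHMT, which remakes methionine with betaine, read 4.38, 4.06 and 4.27 in melatonin-treated cells and 3.24, 3.28 and 3.22 in control cells and rose by 0.99 (standard error 0.10, adjusted p = 0.00735), whereas MAT1A, the liver enzyme that turns methionine into S-adenosylmethionine, read 3.97, 4.26 and 4.65 against 5.80, 5.96 and 5.96 and fell by 1.61 (standard error 0.18, adjusted p = 0.00849). PIPOX, a peroxisomal oxidase of pipecolic acid, fell by 1.43. Of 32 hepatocyte transcription factor genes, 3 were higher, namely KLF15, PPARGC1A and CEBPB, and 3 lower, namely NR2F6 by 1.06, FOXA1 by 0.50 and CEBPD by 0.45. Without replicate 1 the counts were 8 and 9. Of 34 hypoxia and glycolysis genes, 3 were higher and 0 lower (5 and 11 without replicate 1, and 2 and 8 with the ERCC centring). The 3 were BNIP3L, a receptor for mitochondrial autophagy, up by 1.27, KDM3A, a histone demethylase, up by 1.34 and VEGFA, the vascular growth factor, up by 0.78. Without replicate 1 the log2 fold change was 1.09 for BNIP3L and 1.08 for KDM3A. PGK1 and ENO1, enzymes of glycolysis, read 5.84, 7.69 and 7.86 against 8.35, 8.41 and 8.39 and 6.01, 9.31 and 9.42 against 9.91, 9.98 and 10.01. Replicate 1 was far below the other melatonin arrays on both, and they fell by 0.61 and 0.60 in the fit without it only. Of 25 metal genes, 5 were higher and 2 lower (5 and 10 without replicate 1, and 0 and 2 with the ERCC centring), among them SLC40A1, the iron exporter, up by 0.77, the metallothionein gene MT1E, up by 0.38, and CP, the copper carrier ceruloplasmin, which fell by 1.11.

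**Figure D3:**
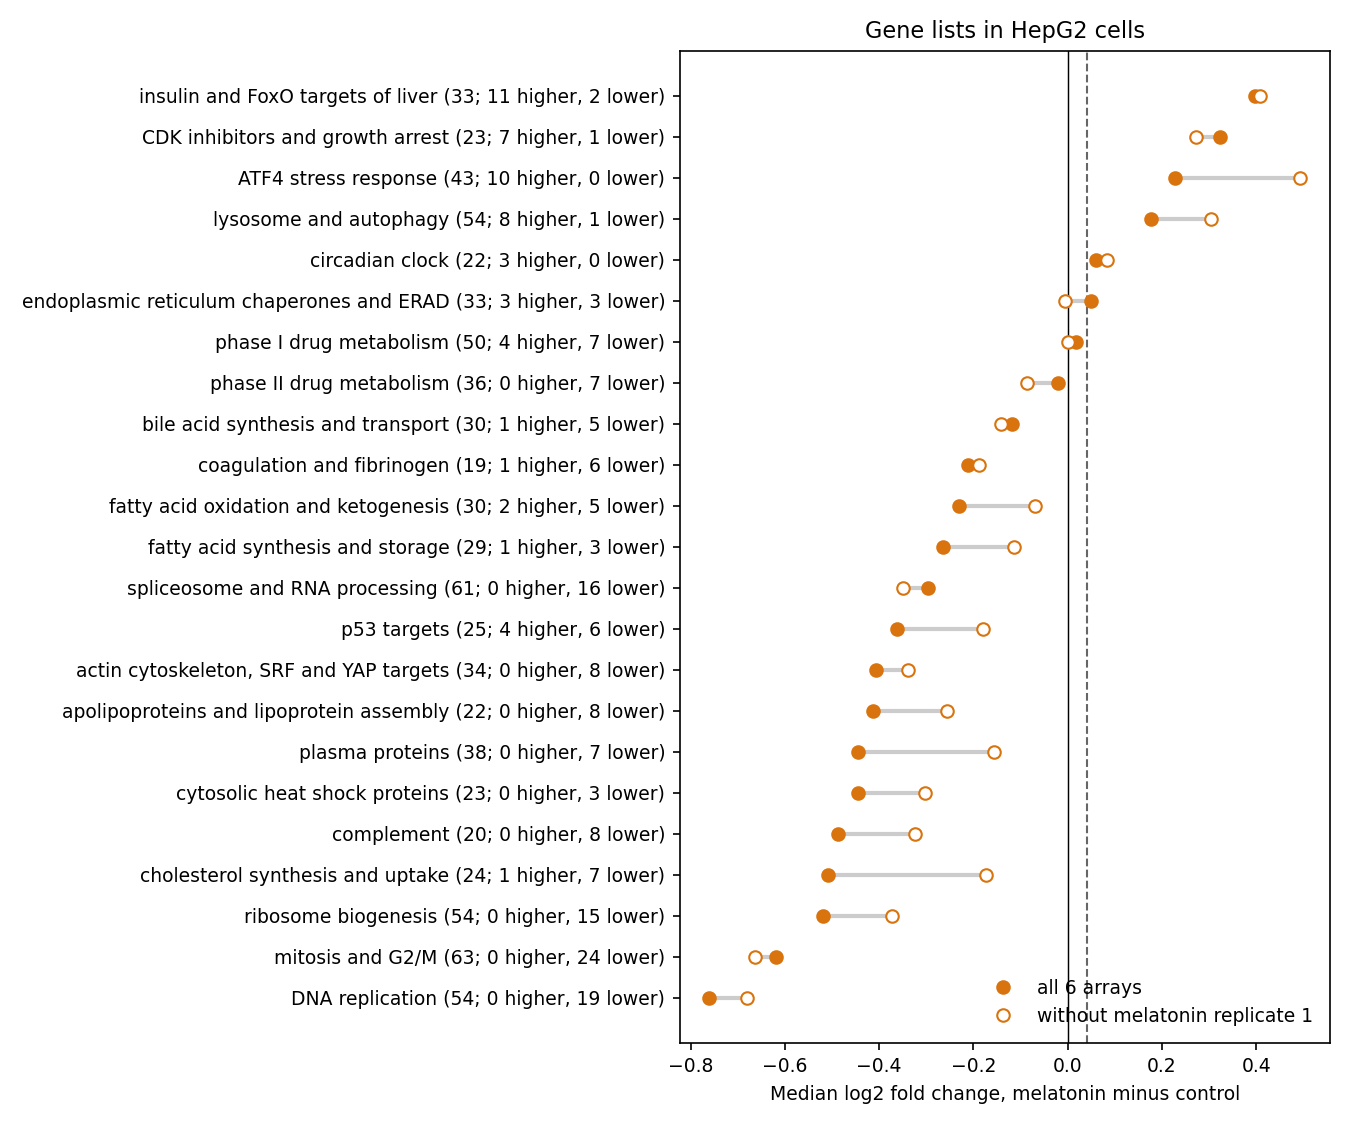
Median log2 fold change, melatonin minus control, of 23 gene lists in HepG2 cells, as a filled circle with all 6 arrays and an open circle without melatonin replicate 1. The numbers beside each list give its measured members and how many were called higher and lower with all 6 arrays, and the dashed line marks the median of all genes, 0.04.

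The last comparison asked where the melatonin effect of HepG2 cells differed from that of Huh-7 cells. The lines look normalized separately, so only fold changes were compared. The interaction test called 2002 genes (11.0%) with all arrays, 1025 with a higher fold change in HepG2 (5.62%) and 977 with a lower one (5.36%). Without HepG2 melatonin replicate 1 it called 5478 genes (30.0%), 2756 (15.1%) and 2722 (14.9%). IGFBP1, NR0B2, G6PC1 and PPARGC1A rose in HepG2 and were among the genes whose fold change differed. The log2 fold change of IGFBP1 was 2.21 in HepG2 and 0.17 in Huh-7, a difference of 2.04 (standard error 0.21, adjusted p = 0.000172). That of NR0B2 was 1.67 in HepG2 and -0.48 in Huh-7 (difference 2.15, standard error 0.18), that of G6PC1 1.40 and -0.14 (difference 1.54, adjusted p = 0.000155), and that of PPARGC1A 0.95 and -0.14 (difference 1.08, adjusted p = 3.19e-05). That of HOXD1 was 1.85 in HepG2 and 0.25 in Huh-7 (difference 1.6), that of FST 1.5 and -0.21 (difference 1.71), that of the ERK phosphatase gene DUSP5 1.18 and -0.73 (difference 1.91) and that of HSD17B2, which inactivates sex steroids, 0.86 and -1.20 (difference 2.05). The Huh-7 control mean was 1.01 for IGFBP1, 1.20 for PPARGC1A and 1.45 for G6PC1, near the bottom of the scale, 3.30 for FST and 3.73 for NR0B2, and 7.32 to 7.75 for HSD17B2, DUSP5 and HOXD1. For KLHL24 the fold changes were 2.39 in HepG2 and 2.49 in Huh-7 and for NUPR1 2.36 and 2.0, and neither difference passed the test (difference -0.10 with a standard error of 0.23 for KLHL24, and 0.35 with 0.17 for NUPR1).

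Several genes that fell in HepG2 also differed between the lines. The log2 fold change of ADH4 was -3.22 in HepG2 and -0.13 in Huh-7 (difference -3.09, standard error 0.24, adjusted p = 2.91e-05), that of ADH6 -2.24 and -0.15 (difference -2.10), that of AKR1D1 -2.23 and 0.11 (difference -2.34), and that of UGT2B10 -2.57 and -0.16 (difference -2.41). For SERPINA7 it was -1.94 in HepG2 and -0.01 in Huh-7 (difference -1.93), and for C5 -1.05 and 0.21 (difference -1.27). CPB2 was at -2.99 in HepG2 and -3.26 in Huh-7, a difference of 0.26 (standard error 0.23) that did not pass the test (adjusted p = 0.501). The Huh-7 control mean was 0.96 for ADH4, 1.24 for UGT2B10, 1.97 for AKR1D1 and 1.51 for SERPINA7, near the bottom of the scale, and 7.06 for C5. Of 25 p53 targets, the interaction called 0 as higher and 11 as lower in HepG2 (1 and 17 without HepG2 replicate 1). The shares of all genes were 5.62% and 5.36% (15.1% and 14.9%). The median log2 fold change of these targets was -0.36 in HepG2 and 0.26 in Huh-7. The log2 fold change of DDB2 was -1.12 in HepG2 and 1.32 in Huh-7 (difference -2.44), and that of SESN1 -0.63 and 1.47 (difference -2.10). Of 54 ribosome biogenesis genes, the interaction called 24 with a higher fold change in HepG2 than in Huh-7 and 0 with a lower one. Without HepG2 replicate 1 it called 43 and 0, against the same shares of all genes. The median log2 fold change of that list was -0.52 in HepG2 and -0.97 in Huh-7. Each difference named as called here also passed the test without HepG2 melatonin replicate 1.

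**Figure D4:**
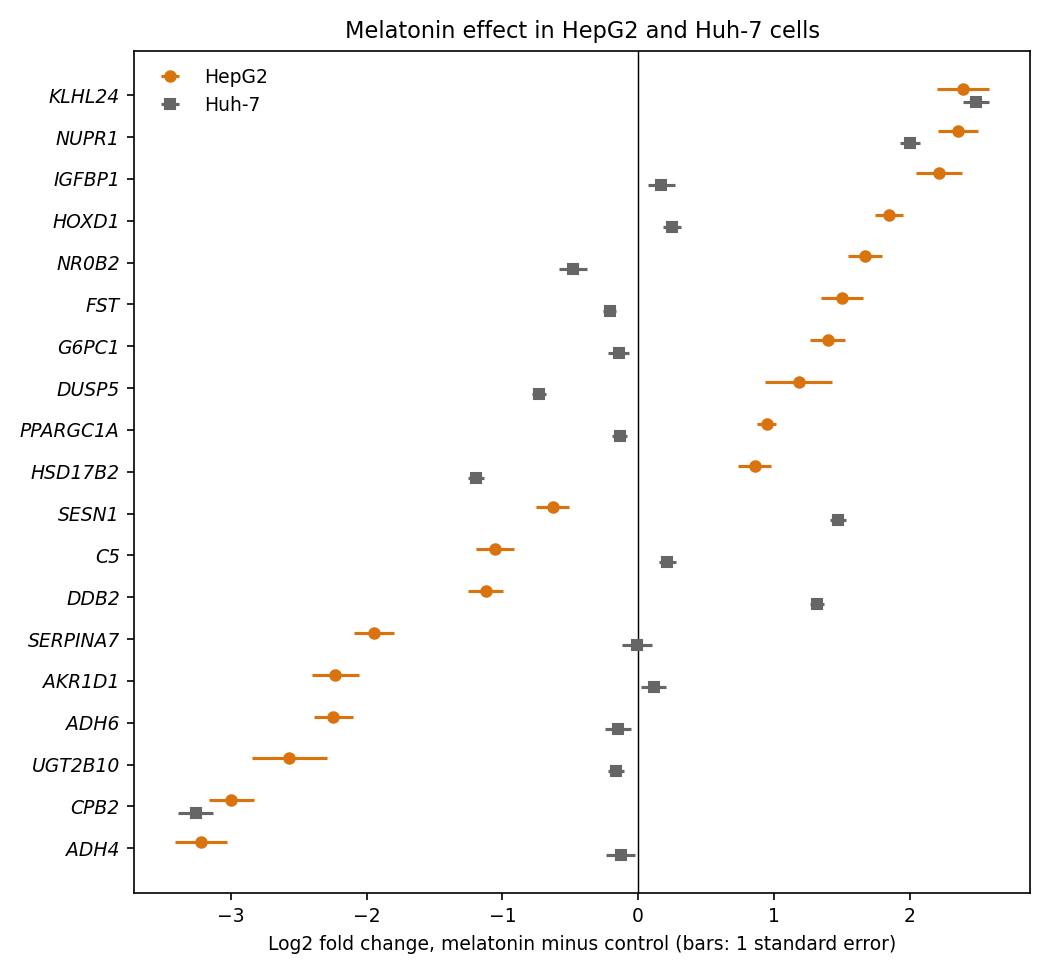
Log2 fold change, melatonin minus control, of 19 genes in HepG2 cells (orange circles) and Huh-7 cells (grey squares), with bars of 1 standard error, from all arrays. For IGFBP1, NR0B2, G6PC1, ADH4 and AKR1D1 the HepG2 and Huh-7 bars lie far apart, and for KLHL24, NUPR1 and CPB2 they are close. In Huh-7 control cells IGFBP1, G6PC1, ADH4 and AKR1D1 lay near the bottom of the scale.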

How the data were processed

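RNA of HepG2 cells was labelled with biotin by a 3′ in vitro transcription kit and hybridised to a customized PrimeView array. The deposited values are log2 intensities that the authors normalized by RMA (version not given in the sources used here), and the low and high ends of the columns differ between cell lines, so no level was set against that of another line. Gene names came from the platform annotation. Probe sets with 1 symbol (45284, less 6 control probe sets) were averaged per gene, and 1333 probe sets with several symbols and 2878 with none were left out.

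Melatonin and control arrays were compared with limma 3.58.1 in R 4.3.3 on the HepG2 arrays, with Benjamini-Hochberg adjustment over 18244 genes and a threshold of 0.05, in place of the methods' t-test, which was run as an alternative. The Huh-7 fold changes came from the same fit of the Huh-7 arrays, and the difference of the fold changes from an interaction term. Arrays give no read depth, and 3 per group limit the precision. Scripts were tested on simulated data.

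The cells, gene lists and tests were chosen with earlier results of these data known. The genes named are the 15 highest and 15 lowest called in both fits without overlap of the groups, up to 5 in each direction of each list, genes a list is known for, melatonin genes, the 10 in each direction that differed most from Huh-7, and those on which melatonin replicate 1 lay farthest off. Not all of these are printed. Alternatives were other weights, scalings, filters, tests and left-out arrays. Promoters are RefSeq sequences, and several entries of a gene counted as 1.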

Additional observations from a re-analysis of the deposited data

Results flagged for a closer look

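The melatonin effect differed between HepG2 and Huh-7 cells at 2002 genes with all arrays and at 5478 genes without HepG2 melatonin replicate 1, by the interaction term in limma. The genes below are those named in the comparison with Huh-7 whose difference passed this test in both fits, and they are not the 16 largest differences. Each value is the log2 fold change in HepG2 minus that in Huh-7, with all arrays. Above 0 were IGFBP1 at 2.04, NR0B2 at 2.15, HSD17B2 at 2.05, DUSP5 at 1.91, FST at 1.71, HOXD1 at 1.60, G6PC1 at 1.54 and PPARGC1A at 1.08. Below 0 were ADH4 at -3.09, DDB2 at -2.44, UGT2B10 at -2.41, AKR1D1 at -2.34, ADH6 at -2.10, SESN1 at -2.10, SERPINA7 at -1.93 and C5 at -1.27. The highest adjusted p among these 16 genes was 0.000979, for DUSP5. Without HepG2 melatonin replicate 1 the difference was 1.90 for IGFBP1, 2.26 for NR0B2 and -3.30 for ADH4. In Huh-7 control cells IGFBP1, G6PC1, PPARGC1A, ADH4, UGT2B10, AKR1D1 and SERPINA7 lay near the bottom of the scale. The part of this in their differences was not tested.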

How the results depend on the processing

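Leaving out 1 array at a time gave 21 to 5721 genes for HepG2, against 1377 with all 6, and 1351 to 5478 for the difference from Huh-7, against 2002. For HepG2, array weights gave 6051 genes, a joint fit of 24 arrays 5850, and the methods' t-test 533 after adjustment and 3462 at an unadjusted p under 0.05. For the difference from Huh-7, array weights gave 5810 genes and the joint fit 3855. The deviations of same-numbered arrays correlated at 0.136, 0.121 and 0.006, and those of differently numbered arrays at -0.132 to 0.129. With 3 arrays a group and melatonin replicate 1 far from the others, these values cannot show whether the replicate numbers pair the arrays. With the replicate number as a block, 42 genes were called for HepG2 and 1203 for the difference. The other settings kept both counts within 1.5 times, with 951 to 1460 genes for HepG2, although the ERCC centring shifted the split of calls to 13.3% higher in place of 51.3%. That centring also turned the sign of the medians of the ATF4, lysosome, clock, phase I, chaperone, melatonin and aryl hydrocarbon receptor lists. The median of all genes turned in sign as well, from 0.04 to -0.20. Chosen after seeing the data, settings that left out melatonin replicate 1 together with another choice gave 5720 genes with the highest probe set, 5814 with median centring, 4896 with the replicate block, 3305 with the t-test, and 4996, 4797 and 4817 without control replicate 1, 2 or 3 as well. Adding a minimum of 1.5-fold gave 1511. Over the 138 genes of the text, 3448 values under alternatives were computed, of which 2706 kept direction and side of the threshold, 601 lost the call, 141 gained one and 0 turned in sign while called. All 115 genes of the text called with all 6 arrays were also called without melatonin replicate 1. The same held for all 1377 genes called with all 6 arrays, so the 115 are no separate check. Many genes of the text were chosen for being called, so the tally of values is no independent check either. The precision is limited by 3 arrays a group, of which 1 had low 5′ signal.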
